A study of Mus musculus with 9 samples.

Results

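The TAM family is a small group of receptor tyrosine kinases, encoded by Axl, Mertk and Tyro3, together with their secreted ligands, encoded by Gas6 and Pros1. These 5 genes were found by symbol among the 49671 genes counted in each of 9 RNA libraries of Panc02, a mouse cell line of pancreatic ductal adenocarcinoma, and 4 of them (Axl, Tyro3, Gas6 and Pros1) were high enough to be among the 15766 genes tested. They were chosen by pathway membership with their read counts in the KO_1E7, CRISPR_1G2 and parental libraries already known, so the differences between groups given here describe the libraries and are no independent test.

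The study used poly(A) RNA from cultured cells without treatment and asked how loss of VPAC2, the Vipr2 gene product and a G protein-coupled receptor of the neuropeptide VIP, affects this line. KO_1E7 was a single clone labelled as VPAC2 knock out after CRISPR-Cas9 editing, CRISPR_1G2 was a single clone labelled CRISPR-wild type, and parental was the unedited, wild-type line, with 3 libraries each. The design text of the series counts both clones as derived from knockout cells and so disagrees with how CRISPR_1G2 is labelled. The genotype labels were followed. Because each clone is 1 clone, an effect of the edit and any other property of that clone cannot be told apart. The labels do not say whether the replicates of a group were separate cultures, so the spread that the p-values rest on may be technical.

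As background, AXL, MERTK and TYRO3 share an extracellular part of immunoglobulin-like and fibronectin type III domains and an intracellular kinase. GAS6 activates all 3 receptors, and protein S, the product of Pros1, acts mainly on MERTK and TYRO3. Both ligands carry a Gla domain that is modified in a vitamin K-dependent step and binds phosphatidylserine, so that they bridge the receptors to membranes exposing this lipid. MERTK is best known for the uptake of apoptotic cells by macrophages, TYRO3 for its high levels in the nervous system, and AXL for its presence on many carcinoma cells, pancreatic ones among them, where it has been linked to invasion and drug resistance.

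Gene counts ranged from 27898705 to 51878289 per library. Vipr2, the targeted gene, had 1, 2 and 1 counts in KO_1E7 1, 2 and 3, 1, 13 and 12 in CRISPR_1G2 1, 2 and 3, and 6, 3 and 12 in parental 1, 2 and 3, too few to check any single library against its label. In the names of the deposited columns, the first and second libraries of each group carry different dates and the third carries the word NSG, and no source says what either marks. KO_1E7 1 shares its date with parental 1, and CRISPR_1G2 1 shares its date with parental 2. Parental 3 and CRISPR_1G2 3 stood apart from the other libraries of their groups, with the p53 target Mdm2 at 3910 CPM (read counts scaled to a common depth on TMM-scaled library sizes) in CRISPR_1G2 3 and 1860 CPM in parental 3, against 646 to 1170 CPM in the other 7 libraries. In parental 3, 23.41% of gene counts lay on genes related to ribosomal RNA, against 1% to 1.83% in the other 8 libraries. The epithelial markers Krt8, Krt18 and Sox9 were present in every library (lowest 248, 333 and 107 CPM), whereas the duct channel gene Cftr had 6 counts over all 9 libraries. Other epithelial markers differed between the groups. The keratin gene Krt7 averaged 4.58 CPM in KO_1E7, 43.0 CPM in CRISPR_1G2 and 25.9 CPM in parental, called lower in KO_1E7 against parental (edgeR adjusted p = 0.0323) and against CRISPR_1G2 (0.00759). The adhesion gene Epcam averaged 1.73 CPM in KO_1E7, 12.5 CPM in CRISPR_1G2 and 5.82 CPM in parental, called lower in KO_1E7 against CRISPR_1G2 (adjusted p = 0.0292). The adhesion gene Cdh1 went the other way, at 29.6 CPM in KO_1E7, 11.25 CPM in CRISPR_1G2 and 15.56 CPM in parental, and was not called. Of the 9 tested markers of this list, 3 had positive and 6 negative log2 fold changes in KO_1E7 against parental. The part of these differences in the values of the TAM genes was not tested.

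Per exon length, the 5 genes spanned a wide range of levels (RPKM, which is CPM divided by the exon length in kilobases). Axl averaged 77.9 RPKM over the 9 libraries (41.3 to 100.3), above 96.3% of the tested genes. Tyro3 averaged 7.21 RPKM (4.66 to 10.8), Gas6 0.237 RPKM (0.0545 to 0.631), Pros1 0.0744 RPKM (0.0277 to 0.124) and Mertk 0.0184 RPKM (0 to 0.0321). The ranges of Axl, Tyro3 and Gas6 did not overlap, so this order held in every library. Those of Gas6 and Pros1, and of Pros1 and Mertk, overlapped, and their order is within the spread between libraries. Panc02 cells carried RNA of Axl at a high level and of Tyro3 at a middle level, and very little of Mertk, Gas6 and Pros1.

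**Figure D1:**
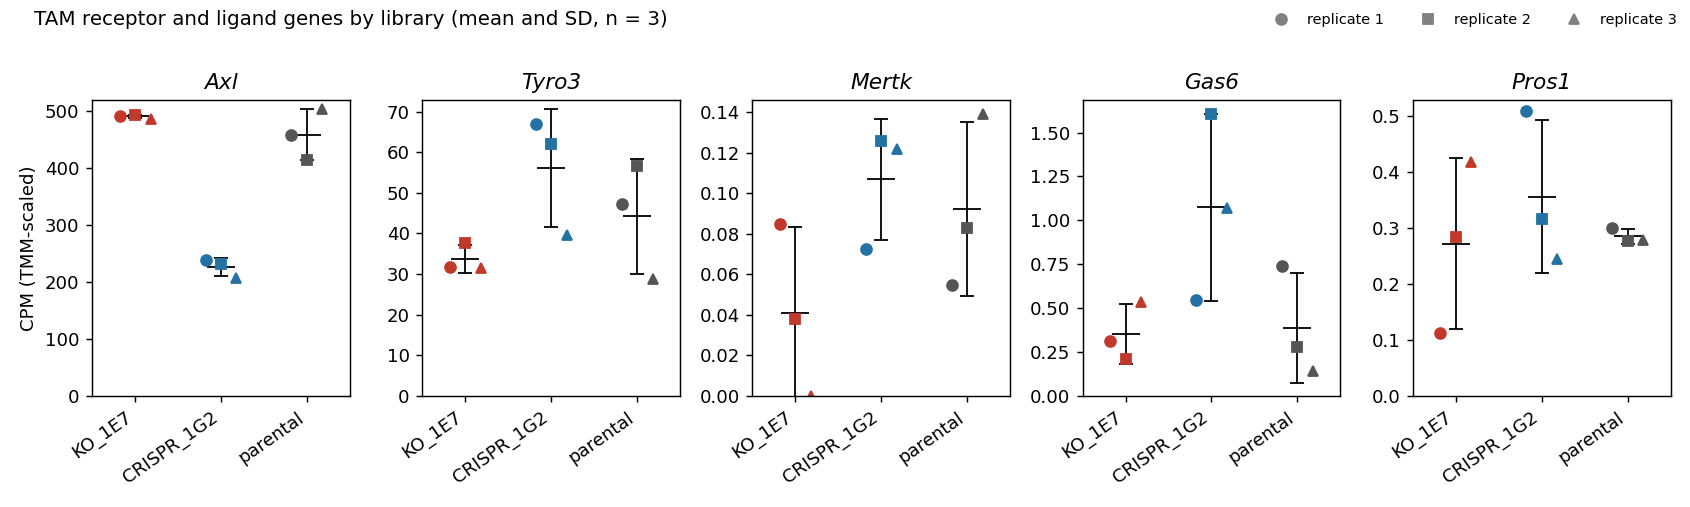
Levels of the 5 TAM genes in CPM on TMM-scaled library sizes (linear axes, a different scale for each gene), with 1 symbol per library, the group mean as a long bar and the SD (n = 3) as the error bar, which for Mertk in KO_1E7 reaches below the axis. Axl lies at 208 to 239 CPM in CRISPR_1G2 and at 415 CPM or more in all KO_1E7 and parental libraries, while Mertk stays at 0.139 CPM or below in every library.

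Axl, the receptor with the highest level, was lower in CRISPR_1G2 than in either other group, while KO_1E7 and parental overlapped. Axl (ENSMUSG00000002602) lies on the minus strand of chromosome 7, at 25757273 to 25788705 on GRCm38, with 5033 bases in 19 merged exons. It had 17416, 26032 and 16320 counts in KO_1E7 1, 2 and 3, 6587, 7354 and 6806 in CRISPR_1G2 1, 2 and 3, and 16750, 15018 and 18155 in parental 1, 2 and 3. On the CPM scale these were 492, 493 and 487 in KO_1E7, 239, 232 and 208 in CRISPR_1G2, and 458, 415 and 505 in parental. On this scale all 3 CRISPR_1G2 libraries lay below every other library, and the KO_1E7 libraries lay inside the parental range. The upper end of that range was parental 3, and parental 1 and 2 lay below every KO_1E7 library. In TPM, which is per exon length without TMM scaling, parental 3 was at 88.0, below the CRISPR_1G2 libraries at 131 to 141. All 5 TAM genes had a lower TPM in parental 3 than in parental 1 and 2. How many of all tested genes separate CRISPR_1G2 from every other library was not counted. The group means were 491 ± 3.28 CPM in KO_1E7, 226 ± 16.4 CPM in CRISPR_1G2 and 459 ± 45.1 CPM in parental (SD, n = 3 each).

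In the edgeR fit across all genes, the log2 fold change of Axl in CRISPR_1G2 against parental was -1.02 ± 0.12 (SE; 95% interval -1.29 to -0.75; adjusted p = 0.0129). Of the 4 TAM genes tested, 1 was called in this comparison, beside 0.254% of all tested genes, which is 40 genes, all of them lower with all 9 libraries (42 higher and 29 lower without parental 1). Axl had the smallest fold change of those 40, the others lying between -1.40 and -6.73 on the log2 scale, and 1 of them, the matrix gene Thbs2 (named after its values were seen), had a higher mean level. In KO_1E7 against CRISPR_1G2 the log2 fold change of Axl was 1.12 ± 0.12 (0.84 to 1.39; adjusted p = 0.00216), and again 1 of the 4 was called, beside 12.7% of all tested genes (5.71% higher and 7.03% lower). In KO_1E7 against parental it was 0.10 ± 0.12 (-0.17 to 0.37; adjusted p = 0.671). Here 0 of the 4 were called by edgeR or by DESeq2, beside 5.42% of all tested genes called by edgeR (2.54% higher and 2.87% lower). In edgeR, 0 of the 4 had an unadjusted p under 0.05, beside 23.7% of all tested genes. These contrasts share libraries, so the first and the second both rest on the low CRISPR_1G2 values.

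The difference between CRISPR_1G2 and parental did not pass in edgeR when the fit held only these groups (adjusted p = 0.138) or without KO_1E7 1 (0.0504), KO_1E7 3 (0.0559), CRISPR_1G2 1 (0.067) or CRISPR_1G2 2 (0.104), although the estimate stayed between -1.08 and -0.89 in all 20 settings, where the adjusted p ran from 1.23e-14 to 0.138. Between KO_1E7 and CRISPR_1G2, Axl was called in each of the 20 settings, with estimates of 1.06 to 1.16 and an adjusted p of at most 0.016. In KO_1E7 against parental it was called in 0 of the 20. Without parental 3 and CRISPR_1G2 3 the edgeR estimate there was 0.17 (adjusted p = 0.189). Between libraries that share a date, Axl stood at 492 CPM in KO_1E7 1 against 458 CPM in parental 1, and at 239 CPM in CRISPR_1G2 1 against 415 CPM in parental 2, pairs too few for a test. In bulk RNA, fewer cells that carry a transcript and less of it per cell cannot be told apart.

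**Figure D2:**
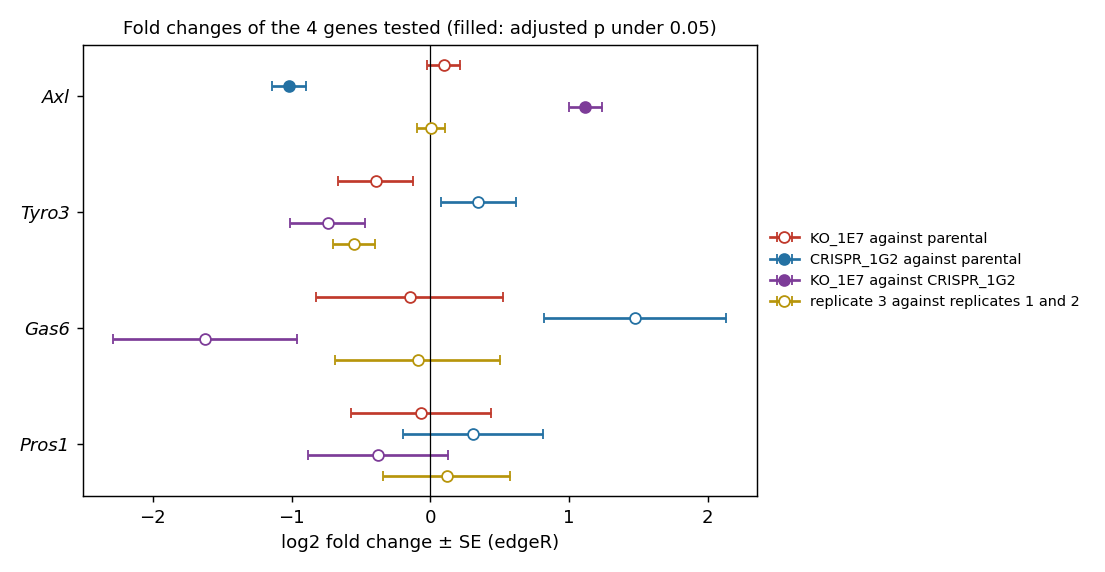
Log2 fold changes (x axis) with their standard errors from edgeR for the 4 TAM genes tested, in the 3 comparisons between groups and in replicate 3 against replicates 1 and 2, with filled symbols for an adjusted p under 0.05. The filled symbols are Axl at -1.02 in CRISPR_1G2 against parental and at 1.12 in KO_1E7 against CRISPR_1G2, and the error bars of Gas6 and Pros1 are the widest.

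The promoter windows of the 2 expressed receptor genes are shown because their RNA levels carry the differences described here. Each runs from 250 bases before to 50 bases after the RefSeq start (GRCm38.p6), and a window was found for 5 of the 5 genes. The letters searched, on both strands, were the cAMP response element TGACGTCA, the AP-1 site TGANTCA, the TEAD site GGAATG and the GC box GGGCGG, a set chosen after the levels were known, and matches are in capitals. The Axl window is chr7:25788684-25788983 on the minus strand, and the Tyro3 window is chr2:119799264-119799563 on the plus strand, inside the span deposited for Tyro3.
Axl: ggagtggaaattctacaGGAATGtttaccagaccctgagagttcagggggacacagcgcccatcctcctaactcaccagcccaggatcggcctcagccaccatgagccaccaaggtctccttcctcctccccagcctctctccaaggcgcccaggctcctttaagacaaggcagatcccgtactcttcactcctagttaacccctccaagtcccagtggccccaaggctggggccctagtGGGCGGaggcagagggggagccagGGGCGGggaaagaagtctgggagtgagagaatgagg
Tyro3: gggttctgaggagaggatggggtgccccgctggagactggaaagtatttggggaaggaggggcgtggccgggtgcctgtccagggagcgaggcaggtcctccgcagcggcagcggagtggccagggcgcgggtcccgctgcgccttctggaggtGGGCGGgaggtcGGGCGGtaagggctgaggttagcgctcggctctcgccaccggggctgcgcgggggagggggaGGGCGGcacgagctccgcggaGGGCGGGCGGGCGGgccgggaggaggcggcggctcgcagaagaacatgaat
The Axl window, with 60.3% G or C, held 1 TEAD match at position -233 and 2 GC boxes at -10 and 15, counted from the start. The Tyro3 window, with 73.3% G or C, held 6 GC boxes, the last 3 of which overlap. Among all 32851 promoter windows of the table, 1.79% held the cAMP response element, 7.81% the AP-1 letters, 14.7% the TEAD letters and 35.7% the GC box. Neither window held the cAMP response element or the AP-1 letters, which says only that these letters are not in these 300 bases. The windows of Mertk, Gas6 and Pros1 held 4, 4 and 5 GC boxes and no other match.

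The genes around Axl did not follow it. On chromosome 7, the median log2 fold change of 1240 tested genes was -0.45 in KO_1E7 against parental, with 15 genes called higher and 133 lower, while the median over all tested genes was -0.03. Within 2 Mb of Axl, 81 other genes had a median of -0.52 in this comparison, with 1 called higher (Pld3, which encodes a lysosomal exonuclease and is named after its values were seen) and 15 lower. In CRISPR_1G2 against parental the same 81 genes had a median of 0.13, and 0 were called by edgeR and 1 by DESeq2 (Lypd3). An unadjusted p under 0.05 in edgeR was found for 2 of the 81, beside 7.73% of all tested genes. The nearest tested gene on the one side, Hnrnpul1, which encodes an RNA-binding nuclear protein, stood at -0.42 ± 0.20 in KO_1E7 against parental (edgeR adjusted p = 0.244) and at 0.08 ± 0.20 in CRISPR_1G2 against parental (adjusted p = 0.982). On the other side, Gm29763 stood at -0.29 ± 0.52 and 0.03 ± 0.53 in the same comparisons (adjusted p = 0.784 and 0.997). Axl thus lay above the median of its neighbourhood in KO_1E7 against parental and below it in CRISPR_1G2 against parental, and the distance of Axl from these medians was not tested. No other annotated gene overlaps Axl, Tyro3 or Pros1.

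**Figure D3:**
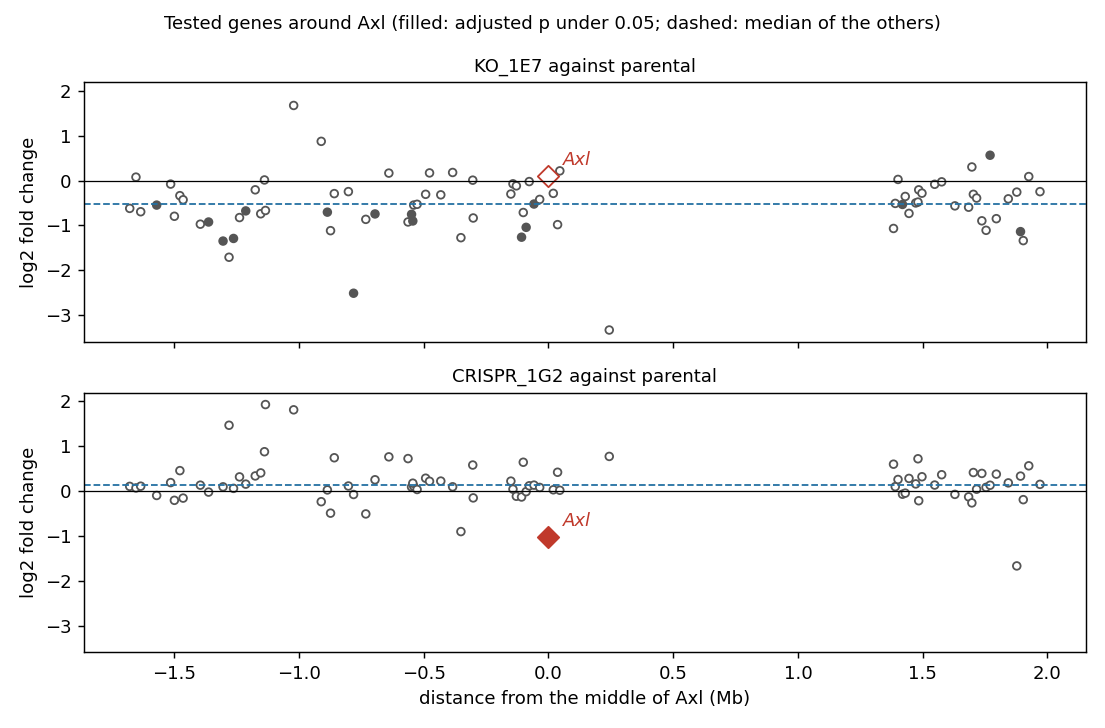
Log2 fold changes of tested genes within 2 Mb of Axl against the distance from its middle (Mb), in KO_1E7 against parental (top) and in CRISPR_1G2 against parental (bottom), with filled symbols for an adjusted p under 0.05 and the dashed line at the median of the 81 other genes. In the top panel the dashed line is at -0.52 and Axl at 0.10, and in the bottom panel the line is at 0.13 and Axl at -1.02.

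Tyro3, the second receptor by level, ran the other way between the clones, with values that depended on the third libraries. Tyro3 (ENSMUSG00000027298) lies on the plus strand of chromosome 2, at 119797733 to 119818104, with 6198 bases in 21 merged exons. It had 1127, 1982 and 1055 counts in KO_1E7 1, 2 and 3, 1841, 1971 and 1299 in CRISPR_1G2 1, 2 and 3, and 1727, 2048 and 1039 in parental 1, 2 and 3. Scaled to CPM these were 31.8, 37.6 and 31.5 in KO_1E7, 66.9, 62.1 and 39.7 in CRISPR_1G2, and 47.2, 56.5 and 28.9 in parental. Every CRISPR_1G2 library lay above every KO_1E7 library, and parental 3 was the lowest of all 9. How many of all tested genes separate the clones in either direction was not counted. In edgeR, 29% of them had an unadjusted p under 0.05 in this comparison of the clones. The group means were 33.6 ± 3.40 CPM in KO_1E7, 56.2 ± 14.5 CPM in CRISPR_1G2 and 44.2 ± 14.1 CPM in parental (SD, n = 3 each).

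With group as the only term and all 9 libraries, edgeR did not call Tyro3 in any comparison between groups. Its log2 fold change was -0.74 ± 0.27 in KO_1E7 against CRISPR_1G2 (adjusted p = 0.109), -0.39 ± 0.27 in KO_1E7 against parental (95% interval -1.01 to 0.22; adjusted p = 0.415) and 0.35 ± 0.27 in CRISPR_1G2 against parental (adjusted p = 0.863). Without parental 3 and CRISPR_1G2 3, Tyro3 was called lower in KO_1E7 against parental (-0.62, adjusted p = 0.00994) and against CRISPR_1G2 (-0.93, adjusted p = 0.00138). In CRISPR_1G2 against parental the estimate was 0.31 (adjusted p = 0.425). Over all genes, the calls with KO_1E7 rose in this setting from 854 to 3330 against parental, and from 2010 to 4615 against CRISPR_1G2. In replicates 1 and 2 alone, the Tyro3 estimates in KO_1E7 were -0.57 against parental (adjusted p = 0.0419) and -0.87 against CRISPR_1G2 (adjusted p = 0.00858). Here 1737 and 3111 of 15749 genes were called. The third libraries hold 1 library per group and allow no test of their own. With all 9 libraries, Tyro3 was also called in KO_1E7 against CRISPR_1G2 with the replicate number as a block (-0.70, adjusted p = 0.0361) or with a term for replicate 3 (-0.70, adjusted p = 0.0223). These fits called 2614 and 3330 of all 15766 genes in this comparison. Without CRISPR_1G2 3 alone Tyro3 was called there as well (-0.92, adjusted p = 0.0457), beside 2007 of 16369 genes. Over all 20 settings, DESeq2 included, its adjusted p in this comparison ran from 0.000228 to 0.297. Between libraries that share a date, Tyro3 stood at 31.8 CPM in KO_1E7 1 against 47.2 CPM in parental 1, and at 66.9 CPM in CRISPR_1G2 1 against 56.5 CPM in parental 2.

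**Figure D4:**
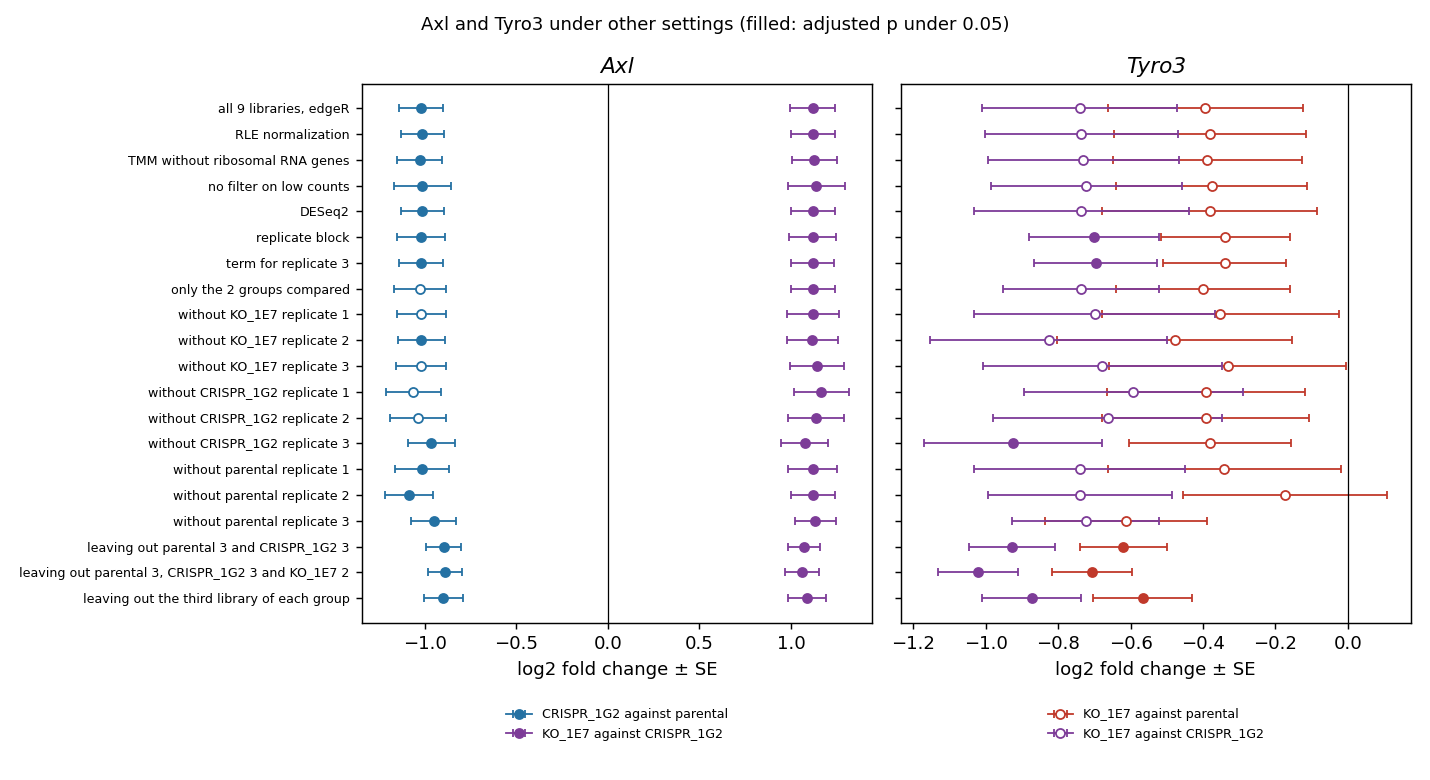
Log2 fold changes of Axl (left) and Tyro3 (right) with their standard errors under 20 settings named at the left, filled where the adjusted p was under 0.05. Axl in KO_1E7 against CRISPR_1G2 is filled in all 20 rows, Axl in CRISPR_1G2 against parental in 15, and Tyro3 in KO_1E7 against CRISPR_1G2 in 6 and against parental in 3, among them every row that leaves out parental 3 and CRISPR_1G2 3 together.

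The contrast of replicate 3 with replicates 1 and 2, which played no part in the choice of the genes, was tested with group as a covariate. Tyro3 stood at -0.55 ± 0.15 in this contrast (edgeR adjusted p = 0.0792), lower in the third library of 3 of 3 groups and not past the threshold. The log2 ratio of Tyro3 in replicate 3 over the mean of replicates 1 and 2 was -0.14 in KO_1E7, -0.70 in CRISPR_1G2 and -0.84 in parental. Mdm2 was high in the third libraries of CRISPR_1G2 and parental, and its part in the Tyro3 values was not tested. Axl stood at 0.01 ± 0.10 (adjusted p = 0.966), Gas6 at -0.09 ± 0.59 (0.930) and Pros1 at 0.12 ± 0.46 (0.874). Among all genes edgeR called 0% in this contrast, although 33.3% of them had an unadjusted p under 0.05, and DESeq2 called 3048 genes. In other settings edgeR called 1584 of 31003 genes without a filter on low counts, 1141 of 16402 without KO_1E7 1 and 6248 of 16565 without KO_1E7 3. With DESeq2, Tyro3 was called (adjusted p = 0.0127), as it was in edgeR without a filter on low counts (0.0223), without KO_1E7 1 (0.0455) and without KO_1E7 3 (0.00156), where all settings gave 0.00156 to 1.

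Mertk, the receptor of phagocytes, was the lowest of the 5 genes. Mertk (ENSMUSG00000014361) lies on the plus strand of chromosome 2, at 128698956 to 128802894, with 4336 bases in 19 merged exons. It had 3, 2 and 0 counts in KO_1E7 1, 2 and 3, 2, 4 and 4 in CRISPR_1G2 1, 2 and 3, and 2, 3 and 5 in parental 1, 2 and 3. A count of 0 in KO_1E7 3 allows up to 3 counts, or 0.0895 CPM. Pooled over 3 libraries, Mertk was at 0.0411 CPM in KO_1E7 (95% interval 0.0133 to 0.0959), 0.109 CPM in CRISPR_1G2 (0.0521 to 0.200) and 0.0919 CPM in parental (0.0441 to 0.169). These exact Poisson intervals cover counting error only, and they overlap between all groups. Of the 15 genes on the list of macrophage markers, 2 stood out by level, Cd14 at 20.1 to 62.4 CPM and Lyz2 at 0.525 to 18.8 CPM. The list summed to 60.3 to 69.1 CPM in KO_1E7, 58.7 to 94.4 CPM in CRISPR_1G2 and 32.4 to 60.2 CPM in parental. Of its 10 tested genes, 9 had positive log2 fold changes in KO_1E7 against parental (median 1.06) and 9 in CRISPR_1G2 against parental (median 1.39), with 0 called by edgeR in either. Their part in the values of the TAM genes, Axl included, was not tested. The lysosomal gene Cd68 ranged from 2.06 to 8.21 CPM over the libraries and the leukocyte gene Ptprc from 0.0276 to 3.85 CPM. The complement genes C1qa, C1qb and C1qc of macrophages, which often carry Mertk, stayed at 0.396 CPM or below in every library, and the macrophage gene Adgre1 at 0.509 CPM or below.

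The share of receptor RNA held by Axl differed between the groups. Of the summed RPKM of Axl, Tyro3 and Mertk, Axl took 94.7% ± 0.48 in KO_1E7, 83.4% ± 2.76 in CRISPR_1G2 and 92.6% ± 2.77 in parental (SD, n = 3 each). Per length, Axl exceeded Tyro3 by 19.0, 16.2 and 19.1 times in KO_1E7 1, 2 and 3, by 4.41, 4.60 and 6.45 times in CRISPR_1G2 1, 2 and 3, and by 11.9, 9.03 and 21.5 times in parental 1, 2 and 3. The CRISPR_1G2 libraries lay below all others in this ratio. KO_1E7 and parental overlapped only through parental 3, while parental 1 and 2 lay below every KO_1E7 library. The summed receptor level was 103 ± 1.1 RPKM in KO_1E7, 54.1 ± 5.6 RPKM in CRISPR_1G2 and 98.3 ± 6.73 RPKM in parental. These shares use the same contrasts as the choice of the genes and were not tested.

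Gas6, the ligand of all 3 receptors, was low in every library. Gas6 (ENSMUSG00000031451) lies on the minus strand of chromosome 8, at 13465374 to 13494490, with 2548 bases in 15 merged exons. It had 11, 11 and 18 counts in KO_1E7 1, 2 and 3, 15, 51 and 35 in CRISPR_1G2 1, 2 and 3, and 27, 10 and 5 in parental 1, 2 and 3. As CPM these were 0.311, 0.208 and 0.537 in KO_1E7, 0.545, 1.61 and 1.07 in CRISPR_1G2, and 0.738, 0.276 and 0.139 in parental. Every CRISPR_1G2 library lay above every KO_1E7 library, narrowly so for CRISPR_1G2 1 over KO_1E7 3, and CRISPR_1G2 overlapped parental. How many of all tested genes separate the 2 clones was not counted, so the separation is not read as particular to Gas6. Pooled counts gave a ratio of 0.2995 in KO_1E7 over CRISPR_1G2 (95% interval 0.202 to 0.436) and of 2.84 in CRISPR_1G2 over parental (1.97 to 4.18), intervals that cover counting error only. Against the spread between replicates, the log2 fold changes were -1.62 ± 0.66 in KO_1E7 against CRISPR_1G2 (edgeR adjusted p = 0.144), 1.48 ± 0.66 in CRISPR_1G2 against parental (adjusted p = 0.648) and -0.15 ± 0.67 in KO_1E7 against parental (adjusted p = 0.925). Leaving out 1 library each moved the first to between -2.03 (without KO_1E7 3) and -1.21 (without CRISPR_1G2 2), the second to between 1.06 (without CRISPR_1G2 2) and 2.36 (without parental 1), and the third to between -0.56 (without KO_1E7 3) and 0.74 (without parental 1), and none of these was called. Within 2 Mb of Gas6, 35 other tested genes had a median log2 fold change of 0.58 in KO_1E7 against parental. Of these, 8 were called higher and 1 lower. The 892 tested genes of the whole of chromosome 8 had a median of 0.31, with 76 called higher and 9 lower. Among all tested genes, 2.54% were called higher and 2.87% lower. The 8 included the nearest gene on the one side, Rasa3, which encodes a Ras GTPase-activating protein (0.75 ± 0.17, adjusted p = 0.0389). Tfdp1, the nearest on the other side and a partner gene of E2F factors, stood at 0.40 ± 0.20 (adjusted p = 0.267). Tmem255b, which overlaps Gas6 on the opposite strand, had 2 counts in all. Reads lying in both genes may have been counted for neither, so this count does not show how many were shared.

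Pros1, the gene of protein S, was lower still, and its groups overlapped. Pros1 (ENSMUSG00000022912) lies on the plus strand of chromosome 16, at 62854307 to 62929346, with 4088 bases in 16 merged exons. It had 4, 15 and 14 counts in KO_1E7 1, 2 and 3, 14, 10 and 8 in CRISPR_1G2 1, 2 and 3, and 11, 10 and 10 in parental 1, 2 and 3. The groups overlapped, at 0.272 ± 0.153 CPM in KO_1E7, 0.356 ± 0.137 CPM in CRISPR_1G2 and 0.285 ± 0.0136 CPM in parental (SD, n = 3 each). The log2 fold changes by edgeR were -0.07 ± 0.51 in KO_1E7 against parental (adjusted p = 0.953), 0.31 ± 0.51 in CRISPR_1G2 against parental (0.961) and -0.38 ± 0.51 in KO_1E7 against CRISPR_1G2 (0.668). At this depth the standard errors leave room for differences in either direction. The nearest tested genes, Stx19 and 4930453N24Rik, stood at -0.12 ± 0.61 and -0.15 ± 0.12 in KO_1E7 against parental. Neither was called by edgeR in any comparison between groups.

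The genes whose pattern over the 9 libraries was most like that of a TAM gene were found by Pearson correlation of log2 CPM over all tested genes, a description in which the libraries share their groups and their depth. For Axl these were Tnc, which encodes the matrix glycoprotein tenascin C (r = 0.988), G730013B05Rik (0.983) and Gm12602 (0.981). Tnc averaged 162 CPM in KO_1E7, 2.07 CPM in CRISPR_1G2 and 130 CPM in parental, a far wider range than Axl. For Tyro3 they were Tmem39a (0.991), the adhesion receptor gene Adgra3 (0.988) and the Hippo kinase gene Stk4 (0.988), and Adgra3 averaged 23.1 CPM in KO_1E7, 52.2 CPM in CRISPR_1G2 and 32.6 CPM in parental. For the low ligand genes they were Fuca2 (0.936), Gm13889 (0.908) and the periostin gene Postn (0.906) beside Gas6, and Xrn2 (0.923), Gm16579 (0.880) and Gm42559 (0.875) beside Pros1. Among the TAM genes themselves, Axl correlated with Tyro3 at -0.637 and with Gas6 at -0.748 over the 9 libraries.

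The machinery around the receptors was followed in 7 lists of related genes. In CRISPR_1G2 against parental, where Axl was called, edgeR called 0 of their 107 tested genes, beside 0.254% of all tested genes. DESeq2 called 1 (Pdgfrb, a receptor gene described with the last list), and 235 of all 15766. An unadjusted p under 0.05 in edgeR was found for 7 of the 107, beside 7.73% of all tested genes. Leaving out parental 3 and CRISPR_1G2 3 also gave 0 edgeR calls in each list. In KO_1E7 against parental edgeR called 8 of the 107, and in KO_1E7 against CRISPR_1G2 it called 23, beside the shares of all tested genes given above. The median log2 fold change over all tested genes was -0.03 in either comparison with KO_1E7. By chromosome this median varied. Chromosome 7 stood at -0.53 in KO_1E7 against CRISPR_1G2, with 24 genes called higher and 274 lower. Chromosome 8 stood at 0.34, with 137 called higher and 19 lower.

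**Figure D5:**
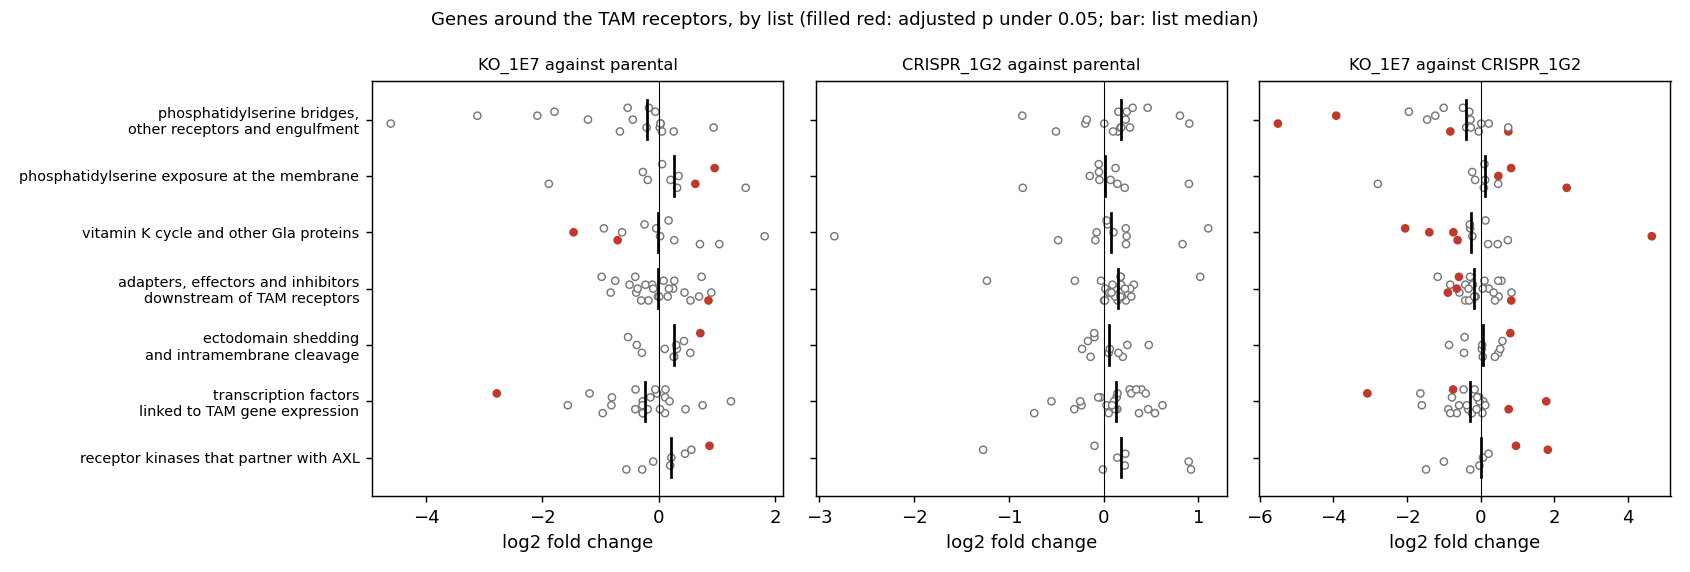
Log2 fold change (x axis, a different range in each panel) of each tested gene of the 7 lists around the TAM receptors in KO_1E7 against parental, CRISPR_1G2 against parental and KO_1E7 against CRISPR_1G2, with filled red symbols for an adjusted p under 0.05 and a bar at the median of each list. The middle panel holds 0 filled symbols, and the right panel the most.

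The first list held 22 genes of other phosphatidylserine bridges, receptors and the engulfment machinery, of which 17 were tested. Against parental, 0 were called in KO_1E7 by edgeR and 3 by DESeq2, which called 2358 of all 15766. An unadjusted p under 0.05 in edgeR was found for 4 of the 17, beside 23.7% of all tested genes. The list median was -0.21. Leaving out parental 3 and CRISPR_1G2 3 gave 2 lower in edgeR, beside 3330 of all 15837 genes called. Against CRISPR_1G2, 1 was called higher and 3 lower in KO_1E7, with a median of -0.39. Lrp1, which encodes a large endocytic receptor, was at 296 ± 54.9 CPM in KO_1E7, 175 ± 28.3 CPM in CRISPR_1G2 and 248 ± 46.3 CPM in parental. Its log2 fold change by edgeR was 0.76 ± 0.20 in KO_1E7 against CRISPR_1G2 (adjusted p = 0.0439) and 0.25 ± 0.20 against parental (adjusted p = 0.489). Mfge8, the gene of the bridging protein lactadherin, fell to 165 ± 25.5 CPM in KO_1E7, against 291 ± 46.2 CPM in CRISPR_1G2 (-0.82 ± 0.17, adjusted p = 0.0176). The others that fell were low, Havcr2, the gene of the receptor TIM-3 (-3.92 ± 0.79, adjusted p = 0.0167), and Scarf1, a scavenger receptor gene (-5.51 ± 1.11, adjusted p = 0.0166). The highest levels per length in this list were those of Calr, the gene of the chaperone calreticulin (465 RPKM), and of the small GTPase gene Rac1 (54.2 RPKM), and neither was called in any comparison.

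Of 11 genes that control phosphatidylserine exposure, 10 were tested. Of these, 2 were called higher and 0 lower in KO_1E7 against parental (median 0.26). Both encode parts of flippases, which move the lipid back to the inner leaflet. Atp11a rose to 233 ± 42.4 CPM in KO_1E7, against 120 ± 5.31 CPM in parental (0.96 ± 0.15, adjusted p = 0.0165), and Tmem30a, the gene of the shared flippase subunit CDC50A, to 209 ± 8.41 CPM, against 136 ± 25.6 CPM in parental (0.62 ± 0.15, adjusted p = 0.0476). Against CRISPR_1G2, the 3 called higher in KO_1E7 were Atp11a (0.83 ± 0.15, adjusted p = 0.0120), the flippase gene Atp8a1 (2.34 ± 0.53, adjusted p = 0.0248) and Plscr1, the gene of phospholipid scramblase 1 (0.48 ± 0.12, adjusted p = 0.0361), with a list median of 0.12. Anxa5, the gene of the phosphatidylserine-binding annexin A5, had the highest level per length (595 RPKM) and was not called.

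Of 19 genes of the vitamin K cycle and of other Gla proteins, 12 were tested, with 0 called higher and 2 lower in KO_1E7 against parental (median -0.01). Vkorc1, which encodes the vitamin K epoxide reductase that warfarin inhibits, fell to 7.42 ± 0.204 CPM in KO_1E7, against 12.1 ± 1.20 CPM in parental (-0.71 ± 0.16, adjusted p = 0.0375). Nqo1, the gene of a quinone reductase, fell to 0.225 ± 0.0382 CPM, against 0.625 ± 0.0672 CPM in parental (-1.47 ± 0.34, adjusted p = 0.0421). Against CRISPR_1G2, 1 was called higher and 4 lower (median -0.25). Mgp, the gene of the Gla-bearing calcification inhibitor matrix Gla protein, was at 48.8 ± 22.0 CPM in KO_1E7, against 1.93 ± 1.64 CPM in CRISPR_1G2 (4.66 ± 1.04, adjusted p = 0.0231). In parental it was at 13.86 ± 11.7 CPM. Those called lower were Vkorc1 (-0.62), Nqo1 (-1.39) and the transmembrane Gla protein genes Prrg2 (-0.74) and Prrg4 (-2.05). Prrg4 averaged 37.8 ± 6.26 CPM in KO_1E7, 156 ± 82.8 CPM in CRISPR_1G2 and 72.85 ± 32.8 CPM in parental. Calu, which encodes the chaperone calumenin and had the highest level per length (137 RPKM), was not called.

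The 25 adapters, effectors and inhibitors downstream of the receptors were all tested. The list had 1 gene called higher and 0 lower in KO_1E7 against parental (median -0.02), Socs3, a suppressor of cytokine signalling (30.0 ± 3.91 CPM in KO_1E7 and 16.6 ± 0.89 CPM in parental; 0.85 ± 0.16, adjusted p = 0.0247). Socs3 was also higher in KO_1E7 against CRISPR_1G2 (0.84 ± 0.16, adjusted p = 0.0136), and 3 genes fell (list median -0.17), the kinase genes Src (-0.89 ± 0.22, adjusted p = 0.0330) and Akt2 (-0.59 ± 0.13, adjusted p = 0.0213) and the phosphatase gene Ptpn11 (-0.65 ± 0.18, adjusted p = 0.0466). Akt1 and the adapter gene Shc1 had the highest levels per length, at 83.2 and 45.0 RPKM, and were not called. Of the 11 genes of ectodomain shedding and intramembrane cleavage, by which soluble AXL is released, all were tested and 1 was called, higher in both comparisons. This was Ncstn, the gene of the gamma-secretase subunit nicastrin, at 217 ± 9.84 CPM in KO_1E7, 124 ± 18.3 CPM in CRISPR_1G2 and 133 ± 13.8 CPM in parental (0.71 ± 0.14, adjusted p = 0.0306, against parental and 0.81 ± 0.14, adjusted p = 0.0108, against CRISPR_1G2). The shedding list had a median of 0.26 against parental and 0.06 against CRISPR_1G2, and the protease inhibitor gene Timp1, at 53.5 RPKM its highest, was not called.

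Of 25 transcription factor genes linked to TAM gene expression, 24 were tested, with 0 called higher and 1 lower in KO_1E7 against parental (median -0.23). Nr1h3, which encodes the liver X receptor alpha, known in macrophages to induce Mertk, fell to 0.320 ± 0.219 CPM in KO_1E7, against 2.29 ± 0.288 CPM in parental (-2.79 ± 0.51, adjusted p = 0.0226). Leaving out parental 3 and CRISPR_1G2 3 gave 4 higher and 4 lower in this comparison, beside 3330 of all 15837 genes called. In the same setting the exposure list had 3 higher and 0 lower, the vitamin K list 1 and 5, and the adapter list 2 and 3. The shedding list and the list of AXL partners had 2 higher and 0 lower each. In KO_1E7 against CRISPR_1G2 (median -0.29), Nr1h3 (-3.08 ± 0.51, adjusted p = 0.00829) and its partner gene Rxra (-0.75 ± 0.16, adjusted p = 0.0199) fell, and the Hippo pathway factor gene Tead2 (1.79 ± 0.32, adjusted p = 0.0111) and the nuclear receptor gene Ppard (0.77 ± 0.16, adjusted p = 0.0189) rose. Jund and Junb, genes of AP-1 subunits, were the highest per length at 126 and 118 RPKM and were not called.

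Of 9 receptor kinases reported to partner with AXL, 8 were tested. Against parental, 1 was called higher and 0 lower in KO_1E7 (median 0.20), Insr, the insulin receptor gene, at 134 ± 34.2 CPM in KO_1E7 and 73.5 ± 3.27 CPM in parental (0.87 ± 0.18, adjusted p = 0.0339). In KO_1E7 against CRISPR_1G2 2 were called higher and 0 lower (median 0.02), Insr (0.97 ± 0.18, adjusted p = 0.0133) and Pdgfrb, the gene of the PDGF receptor beta (1.83 ± 0.32, adjusted p = 0.0106). Pdgfrb averaged 84.0 ± 32.5 CPM in KO_1E7, 23.6 ± 5.84 CPM in CRISPR_1G2 and 57.1 ± 10.8 CPM in parental, and it was not called in CRISPR_1G2 against parental (-1.27 ± 0.32, adjusted p = 0.311). Pdgfrb is also a fibroblast marker, and the 9 markers of that list summed to 74 to 151 CPM in KO_1E7, 49.9 to 104 CPM in CRISPR_1G2 and 85.9 to 94 CPM in parental, with Dcn, Lum and Fap at 0.593 CPM or below in every library. Of the 6 tested markers, 2 were called higher in KO_1E7 against CRISPR_1G2, Pdgfrb and the collagen gene Col1a2 (3.00 CPM in KO_1E7 and 0.232 CPM in CRISPR_1G2; adjusted p = 0.0482), and 1 lower, the collagen gene Col1a1 (7.78 CPM in KO_1E7 and 23.4 CPM in CRISPR_1G2; adjusted p = 0.0449). The part of such markers in the AXL partner values was not tested. Met, the hepatocyte growth factor receptor gene, had the highest level of this list per length (16.4 RPKM) and was not called.

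The 31 calls of list genes were sensitive to single libraries, as were the calls among all genes. Each of the 31 was kept without parental 3 and CRISPR_1G2 3, but 0 held in all 9 fits that left out 1 library each. Without KO_1E7 1, 27 ended, and without KO_1E7 3, 30 ended. Among all genes, 846 of the 854 calls in KO_1E7 against parental were kept without parental 3 and CRISPR_1G2 3. Of these 854, 49 were kept without KO_1E7 1 and 24 without KO_1E7 3. In KO_1E7 against CRISPR_1G2, 1963, 546 and 449 of 2010 were kept in the same fits. In the contrast of replicate 3 with replicates 1 and 2, edgeR called 0 of the 107 genes of the 7 lists, DESeq2 called 30, and 47 had an unadjusted p under 0.05. Among all 15766 tested genes, edgeR called 0, DESeq2 called 3048, and 33.3% had an unadjusted p under 0.05 in edgeR. Of the list genes called between the clones, Mfge8, Vkorc1, Prrg2 and Akt2, all lower, lie on chromosome 7, as does Tead2, which was higher. Atp11a and Insr, both higher, lie on chromosome 8, as does Nqo1, which was lower. Akt2 is also among the 81 tested genes within 2 Mb of Axl. The part of chromosome-wide shifts in the list calls was not tested.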

How the data were processed

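Gene expression was measured in 9 Panc02 libraries, 3 each of KO_1E7, CRISPR_1G2 and parental, grouped by the sample labels. Messenger RNA from frozen pellets was captured on oligo-dT beads, and the NEBNext Ultra II RNA kit was used for the libraries, per the labels' protocols. The submitters' processing notes name bcl2fastq 2.17, STAR 2.5.2b, featureCounts, Subread 1.5.2, DESeq2 and GRCm38. The annotation release and strand setting are not given in the sources used here, so antisense reads cannot be told apart. The authors deposited raw counts per gene with exon lengths, for 49671 genes and 92 spike-ins, and the spike-ins entered neither library sizes nor tests. The series and sample tables differed in 0 cells, and 0 columns of per-sample values were left unused.

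Here, counts were tested in R 4.3.3 with edgeR 4.0.16 (robust quasi-likelihood F-test, TMM, filterByExpr by group, all 9 libraries in 1 fit), with Benjamini-Hochberg adjustment over 15766 genes at 0.05. DESeq2 1.42.0, leaving out libraries, other scalings and covariates were alternatives. CPM and RPKM used TMM-scaled library sizes, and log2 CPM for correlations a prior count of 2. Counts were also simulated with 100 genes changed 2-fold and 100 changed 4-fold, among 15428 to 15484 genes, in 1 comparison at a time. On these counts, 2-fold changes were called for 14% of changed genes in KO_1E7 against parental, 16% in CRISPR_1G2 against parental and 17% in KO_1E7 against CRISPR_1G2, and 4-fold changes for 69%, 61% and 60%, in the same order of comparisons. The share of changed genes was set and not taken from the data, so these percentages need not hold for the real comparisons.

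The 5 genes and all lists were chosen with earlier results of these data known. Beyond the 5, genes were named by rule: in each list those called (the 4 largest changes where more passed) and the 2 with the highest mean RPKM, the nearest tested neighbours, and the 3 most correlated genes of each tested gene. Promoter sequences are from RefSeq. Libraries of a group differed by a chi-square per gene of at least 8.2, so none was treated as a duplicate. Replicate numbers were checked for pairing by the correlation of deviations from the group means. In CRISPR_1G2 against parental every same-numbered pair was over 0.1 (0.243, 0.469 and 0.647). CRISPR_1G2 1 with parental 2 (0.54) and CRISPR_1G2 2 with parental 1 (0.136) were over 0.1 too, and the third libraries stood apart in both groups. These correlations therefore do not show that the numbers mark pairs. The replicate block changed no call of a TAM gene there.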

Additional observations from a re-analysis of the deposited data

How the results depend on the processing

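Over 16 fold changes of single TAM genes, 252 of 288 alternative values kept their direction and side of the threshold, and the order of the 5 genes by level per length was the same with TPM. The order of the libraries for Axl was not. In TPM parental 3 (88.0) lay below every CRISPR_1G2 library, and KO_1E7 (288 to 314) lay above every parental library (at most 271). All 5 TAM genes had a lower TPM in parental 3, the library with 23.41% of gene counts on ribosomal RNA genes, than in parental 1 and 2. With TMM scaling that left those genes out, Axl in CRISPR_1G2 against parental was at -1.03 (adjusted p = 0.013 by edgeR). In KO_1E7 against parental 854 genes were called, and 546 without a filter on low counts, 2358 with DESeq2, 1298 with the replicate block, 2060 with a term for replicate 3, 3330 without parental 3 and CRISPR_1G2 3, 4423 also without KO_1E7 2, 1737 without the third libraries, and 24 to 1998 leaving out 1 library each. The TAM genes called there were 0, and 1 (Tyro3) in each of the last-named exclusions of 2 or 3 libraries. In CRISPR_1G2 against parental 40 were called, and 235 with DESeq2 (69 higher), 16 with only these groups in the fit, 326 without parental 3, CRISPR_1G2 3 and KO_1E7 2 (171 higher and 155 lower), and 15 to 71 leaving out 1 library (42 higher and 29 lower without parental 1, and mostly lower without each other library). The TAM genes called were 1, 0 with only these groups, and 0 to 1 leaving out 1 library. In KO_1E7 against CRISPR_1G2 2010 were called, and 3374 with DESeq2, 3330 with a term for replicate 3, 4615 without parental 3 and CRISPR_1G2 3, 5557 also without KO_1E7 2, 3111 without the third libraries, and 453 to 2332 leaving out 1 library. The TAM genes called were 1, and 2 (Axl and Tyro3) with the block, the replicate 3 term and each exclusion of 2 or 3 libraries, and 1 to 2 leaving out 1 library. In replicate 3 against the others 0 genes were called, and 1584 without the filter, 3048 with DESeq2 and 0 to 6248 leaving out 1 library. The TAM genes called were 0, 1 (Tyro3) without the filter and with DESeq2, and 0 to 1 leaving out 1 library. The causes of these changes were not tested.

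Estimates that turned direction were all far from the threshold. In replicate 3 against the others Axl was -0.043 without the filter, -0.033 without parental 3 and CRISPR_1G2 3, -0.037 also without KO_1E7 2, and -0.092 to 0.095 leaving out 1 library, and Gas6 was 1.05, 0.76 and -0.69 to 0.49 in the last 3 of these. Leaving out 1 library gave -0.39 to 0.50 for Pros1 in that contrast, -0.56 to 0.74 for Gas6 and -0.46 to 0.29 for Pros1 in KO_1E7 against parental, and -0.028 to 0.52 for Pros1 in CRISPR_1G2 against parental.

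Correlations of same-numbered deviations were -0.0497 to 0.127 between KO_1E7 and CRISPR_1G2 and -0.00342 to 0.153 between KO_1E7 and parental, so that not every pair with KO_1E7 was over 0.1, while all pairs of CRISPR_1G2 and parental were. Parental 2 correlated more with CRISPR_1G2 1, with which it shares a date, than with CRISPR_1G2 2 (0.54 against 0.469). With the replicate block, Tyro3 in KO_1E7 against CRISPR_1G2 was called (-0.70, adjusted p = 0.0361 by edgeR), and the block changed no other call of a TAM gene. In CRISPR_1G2 against parental it gave 37 called genes and -1.02 for Axl (adjusted p = 0.0302). The block and the fits by group or without the third libraries could not be run for the replicate 3 contrast. For Gas6, Pros1 and Mertk, at most 51 counts in a library limit the precision.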
